A study of Mus musculus with 12 samples.

Results

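The replication-dependent histone genes were taken as every row whose symbol starts with Hist1h, Hist2h, Hist3h or Hist4h. The rule gave 68 of 24310 rows, of which 6 encode H1, 18 H2A, 19 H2B, 12 H3 and 13 H4. No measured value entered that rule. For the group tests a second step kept genes with an RPKM (mapped reads per kilobase, scaled to the size of the library) of 1 or more in 4 or more of the 12 libraries, and 46 of the 68 histone genes passed among 10886 genes in all. The 46 were 5 of H1, 13 of H2A, 10 of H2B, 9 of H3 and 9 of H4.

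RNA was sequenced from CMM cells, a GFP-marked mouse acute myeloid leukaemia with inv(16), which had been injected into C57BL/6 mice. Once about 1% of blood cells were GFP positive, the hosts received 3 intravenous injections, and spleens were taken 1 day after the last. Leukaemia cells were enriched through c-Kit, so cells of the host spleen can remain. The libraries fall into 4 labelled CpG-STAT3dODN (a CpG oligonucleotide, a TLR9 ligand, joined to a decoy for the transcription factor STAT3), 4 labelled CpG-scrODN (the CpG part joined to a scrambled control) and 4 labelled PBS (buffer alone). All 3 groups carried the same leukaemia and the same number of injections, and whether the CMM cells are 1 clone is not given in the sources used here. The study asked how STAT3 inhibition combined with TLR9 stimulation acts on these cells.

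The headers inside the files contradicted the labels in all 12 libraries. The files of the CpG-STAT3dODN group carried the header SCR, those of the CpG-scrODN group the header PBS, and those of the PBS group the header DEC. Group names below are those of the labels, and nothing is said of which treatment raised or lowered a gene. Estimated depth was 31510000 to 36250000 reads per library, so that 1 RPKM on a transcript of 500 bases stands for about 15.76 reads at the lowest depth. CpG-STAT3dODN replicate 4 and PBS replicate 4 stood apart, with the immediate-early gene Fos at 5.91 and 12.9 RPKM against 486 to 1156 in the other 10 libraries. The leukaemia marker Kit was detected in all 12 libraries, at 10.5 to 51.1 RPKM. Of 12 B-cell markers in the files none was at 0 throughout, and 11 passed the filter. Their summed RPKM was 26.2 to 116 in CpG-STAT3dODN libraries, 10.7 to 28.9 in CpG-scrODN libraries, and 193 to 749 in PBS libraries. The part of these other cells in the histone values was not tested. In RNA of mixed cells, fewer cells of a type and less RNA per cell cannot be told apart.

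Histones package DNA. H2A, H2B, H3 and H4 form the nucleosome core, and H1 binds the linker DNA between cores. The clustered histone genes are transcribed mainly in S phase, when new chromatin is assembled, and their mRNAs usually lack introns and a poly(A) tail. Such an mRNA ends instead just after a stem-loop, which is bound by SLBP and directs both processing and decay. Some of these genes can also give polyadenylated transcripts. Whether the libraries were made with or without poly(A) selection is not given in the sources used here, so the levels hold for the RNA forms that the kit captured.

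The stem-loop was searched for in the GENCODE transcripts (GRCm38, the assembly that mm10 denotes) as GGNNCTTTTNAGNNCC, after the stop codon and on the transcript strand. It was found in 44 of the 68 genes, each with all 6 stem bases paired, against 17 of 22433 other coding genes (0.0758%). Of the 24 genes without it, 16 have under 16 bases after the stop codon in the annotation. Of the 46 measured genes 31 carry it. There were 6 distinct cores of 16 bases. The most common was shared by 26 genes of H1, H2A, H2B and H3, and another was found in 7 genes, all of them H4. The following lines show 1 gene of each type that the results turn on, and a further H4 gene with the common H4 core, with the core in capitals and up to 5 flanking bases on either side in lower case, 5′ to 3′.
Hist1h1c: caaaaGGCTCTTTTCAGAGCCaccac
Hist1h2ac: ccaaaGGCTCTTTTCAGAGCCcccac
Hist1h2bg: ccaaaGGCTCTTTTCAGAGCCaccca
Hist1h3c: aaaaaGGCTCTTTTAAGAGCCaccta
Hist1h4i: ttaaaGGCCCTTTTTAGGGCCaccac
Hist1h4m: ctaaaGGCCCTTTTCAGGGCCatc
These cores start 24 bases after the stop codon in Hist1h1c and Hist1h3c, 32 in Hist1h2ac, 29 in Hist1h2bg, 30 in Hist1h4i and 33 in Hist1h4m. The annotated transcript ends within 100 bases of the stem-loop in 22 genes and runs over 100 bases past it in the other 22, for 2010 bases in Hist1h2ac and 840 in Hist1h1c. Hist1h2bc, whose annotated transcript has 2 exons, has no match in the 742 bases after its stop codon.

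Promoters from RefSeq (GRCm38.p6, 300 bases around the start of transcription) were matched to 62 of the 68 genes, under their current symbols. CCAAT was found on either strand in 53 of these 62 (85.48%), against 37.41% of 32851 promoters of the same length. It was present in every matched H1, H2A, H2B and H3 promoter and in 3 of 12 H4 promoters. TATAAA was found in 56.45% against 13.62% of all promoters. The octamer ATTTGCAT, known from H2B promoters as a site for OCT1, was found in 13 (20.97%) against 1.735%, in 7 of 18 H2A and 6 of 16 H2B promoters and in no H1, H3 or H4 promoter. AAACACA, a motif known from H1 promoters, was found in 5 of 6 H1 promoters against 7.184% of all promoters. Many H2A and H2B genes start close together on opposite strands. Their windows then overlap and the same site can count for both genes, so these counts are not of separate promoters. A match is a description of the letters and not of a bound site. The 3 promoters shown are those of Hist1h1e and Hist1h2bg, whose values separate CpG-STAT3dODN libraries from CpG-scrODN libraries, and of Hist1h4i, whose values do not. They lie at chr13:23622509-23622808 (Hist1h1e, minus strand), chr13:23571150-23571449 (Hist1h2bg, plus strand) and chr13:22041313-22041612 (Hist1h4i, minus strand). Capitals mark the motifs named above on either strand.
Hist1h1e: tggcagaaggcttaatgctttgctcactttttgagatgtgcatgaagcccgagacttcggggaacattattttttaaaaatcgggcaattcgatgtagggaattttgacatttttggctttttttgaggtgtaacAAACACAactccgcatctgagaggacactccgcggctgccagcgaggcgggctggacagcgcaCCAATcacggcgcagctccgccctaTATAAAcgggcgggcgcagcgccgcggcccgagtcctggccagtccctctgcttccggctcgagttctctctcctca
Hist1h2bg: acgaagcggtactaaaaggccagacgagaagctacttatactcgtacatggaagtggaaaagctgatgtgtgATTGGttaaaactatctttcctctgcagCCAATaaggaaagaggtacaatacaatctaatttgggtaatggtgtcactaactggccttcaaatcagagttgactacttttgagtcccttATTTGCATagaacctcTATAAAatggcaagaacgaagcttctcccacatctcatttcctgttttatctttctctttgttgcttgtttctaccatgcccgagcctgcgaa
Hist1h4i: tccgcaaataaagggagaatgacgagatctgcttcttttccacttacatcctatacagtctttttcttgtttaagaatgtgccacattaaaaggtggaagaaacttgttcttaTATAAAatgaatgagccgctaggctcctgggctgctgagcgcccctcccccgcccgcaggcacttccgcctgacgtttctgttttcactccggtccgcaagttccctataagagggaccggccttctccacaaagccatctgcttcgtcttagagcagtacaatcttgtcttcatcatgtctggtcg

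Copies of these genes share much sequence. Of all windows of 50 bases in the annotated transcript, a median of 48.2% per measured gene also occurred in another histone gene, over 50% in 21 of the 46, and none in only 4 of them. How reads were divided among copies is not given in the sources used here. Among 816 histone values, 22 were 0 and 32 in 13 genes were above 0 but below the RPKM of 1 read, so reads were split between features. Hist1h2bq and Hist1h2br held identical values in every library. Levels of single copies with much shared sequence are therefore uncertain, in particular Hist1h2an, Hist1h2ah, Hist1h2ai, Hist1h3i and Hist1h4m, with 84.6% to 90.7% of windows shared. Hist1h1c, Hist1h1d and Hist1h2ac share 2.21% to 11.6%. Their annotated transcripts run 840, 4884 and 2010 bases past the stem-loop, and the share up to the stem-loop was not measured separately. Hist1h1e overlaps Hist1h2be over 496 bases on the same strand, and Hist3h2a lies in the annotated span of Trim17. The strand used in counting is not stated either.

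The 68 genes lie in 4 clusters, 54 on chromosome 13 (Hist1), 10 on chromosome 3 (Hist2), 3 on chromosome 11 (Hist3) and 1 on chromosome 6 (Hist4). Of these 39, 5, 2 and 0 passed the filter. The level was low in general. The median over the measured histone genes of the mean RPKM was 2.58, against 10.98 over all 10886 genes. A mean of at least 10 was reached by 4 genes, and 35 of the 46 lay under 5. The 5 highest were Hist1h2bg, Hist1h1c, Hist1h2bc, Hist1h4i and Hist1h2bj, with means of 35.4, 35.0, 22.0, 19.7 and 9.72 RPKM, and they held 48.3% of the summed mean. Between the fourth and the fifth, the lowest library of Hist1h4i (12.8) lay above the highest of Hist1h2bj (12.5).

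The 22 genes that did not pass were 1 of H1, 5 of H2A, 9 of H2B, 3 of H3 and 4 of H4, and their highest value in any library was 2.49 RPKM (Hist1h2bh). They include the genes of the testis histones. Hist1h2aa was at 0 in all libraries, Hist1h1t reached 0.196 and Hist1h2ba 0.414 RPKM. Just inside the filter were Hist1h3b and Hist1h4k, with means of 0.570 and 0.932 RPKM. Just outside, with 3 libraries at 1 or more, were Hist1h2ap, Hist1h2bh, Hist1h2bn and Hist1h4f, with means of 0.588 to 0.908. Of the 46 that passed, 44 had a library at 1 or more in all 3 groups and 2 in exactly 2 groups, so none passed through a single group.

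**Figure D1:**
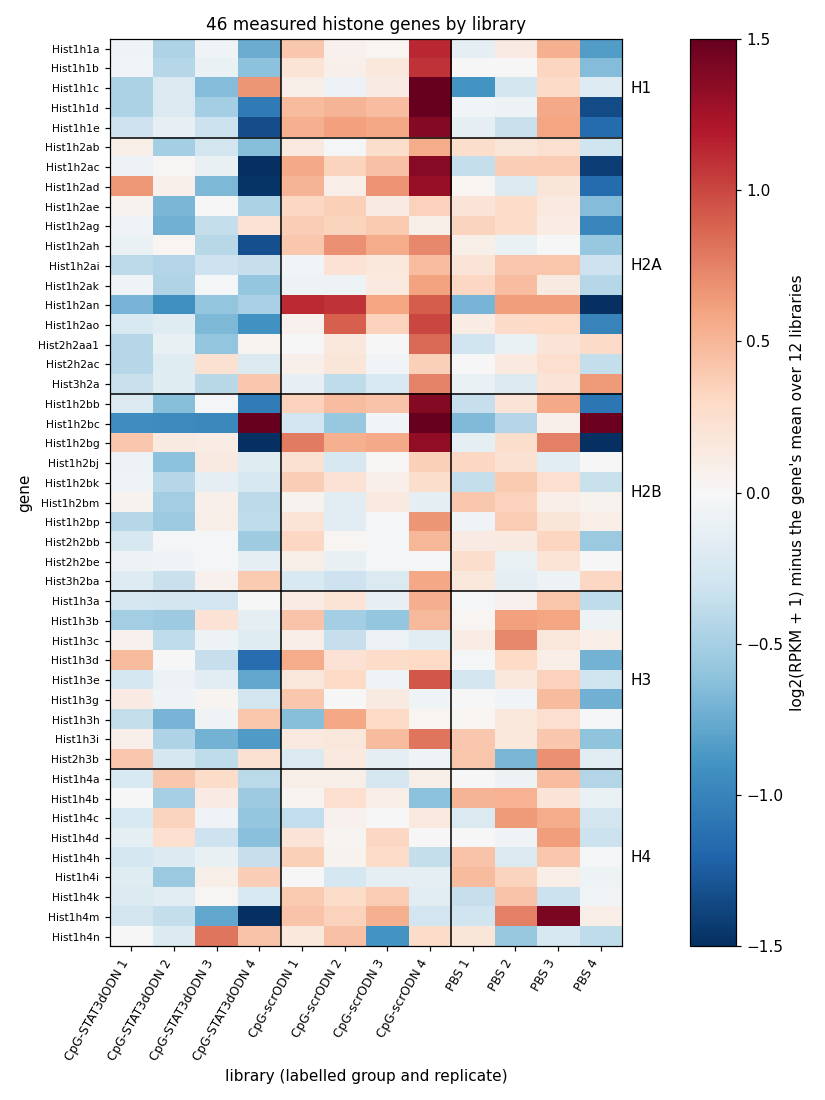
Each row is a histone gene that passed the filter and each column a library, with color giving log2(RPKM + 1) minus the gene's mean over the 12 libraries; colors are capped at 1.5 either way. CpG-scrODN replicate 4 held the highest value of 25 of the 46 genes, and CpG-STAT3dODN replicate 4 the lowest of 14.

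Summed histone RPKM was lower in every CpG-STAT3dODN library than in every CpG-scrODN library. Summed over all 68 genes, RPKM was 178 to 222 (198 ± 18.3, SD, n = 4) in CpG-STAT3dODN libraries, 255 to 474 (318 ± 104) in CpG-scrODN libraries and 189 to 299 (240 ± 47.8) in PBS libraries. The CpG-STAT3dODN and CpG-scrODN libraries did not overlap. A sum is not changed by how reads are divided among copies of equal length, but the annotated lengths ran from 312 to 7425 bases. The sums by type cover only the 46 measured genes, so reads given to copies that did not pass are missing from them. H2A summed to 38.9 to 48.7 RPKM in CpG-STAT3dODN libraries, 68.6 to 100.3 in CpG-scrODN libraries, and 35.4 to 67.7 in PBS libraries. H3 summed to 14.9 to 20.5, 21.1 to 27.8 and 14.7 to 27.6 RPKM in the same order of groups. For H2A and H3 the CpG-STAT3dODN and CpG-scrODN libraries did not overlap. H1 summed to 27.7 to 53.4, 45.3 to 134 and 26.5 to 56.0 RPKM in that order. H2B summed to 55.1 to 76.7, 75.9 to 169 and 62.6 to 93.6 RPKM. H4 summed to 24.9 to 33.0, 28.3 to 34.4 and 28.6 to 42.7 RPKM. All 3 groups overlapped with one another in H1, H2B and H4. In H1 and H2B the CpG-STAT3dODN and CpG-scrODN sums overlapped only through CpG-STAT3dODN replicate 4. There Hist1h1c held 49.8 of 53.4 RPKM and Hist1h2bc 53.5 of 76.7 RPKM. In these 2 groups the mean of log2(RPKM + 1) per library was 1.84 to 2.18 against 2.69 to 3.85 in H1. It was 1.93 to 2.26 against 2.30 to 2.99 in H2B, and 1.27 to 1.67 against 1.55 to 1.81 in H4.

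**Figure D2:**
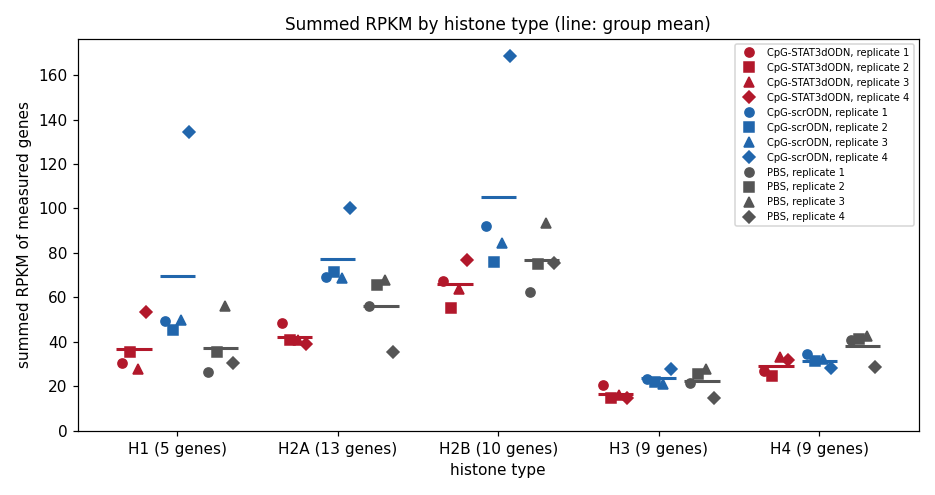
Summed RPKM of the measured histone genes by type, with 1 point per library and a line at each group mean. In H2A the CpG-STAT3dODN libraries lie at 38.9 to 48.7 RPKM, below all CpG-scrODN libraries at 68.6 to 100.3, while in H4 the groups overlap.

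CpG-STAT3dODN was first set against CpG-scrODN, the comparison that by the labels asks what the STAT3 decoy adds to the CpG part. In 41 of 46 histone genes the difference in log2(RPKM + 1) was below 0, against 40% of all genes tested. Its median was -0.47 over the histone genes and 0.03 over all 10886. Values of all 4 CpG-STAT3dODN libraries lay below all 4 CpG-scrODN libraries in 16 histone genes (34.8%), against 0.873% of all genes, and in the opposite order in none, against 3.38%. After Benjamini-Hochberg adjustment over all genes limma called 0 of the 46 histone genes and 0 of 10886 genes (0%). At an unadjusted limma p under 0.05 there were 20 histone genes (43.5%), all with a difference below 0, against 0.57% of all genes in that direction. The smallest adjusted p among the histone genes was 0.96. Histone copies share sequence and many took their extremes in the same libraries, so the 16 and the 20 do not count independent genes.

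In H1 all 5 genes had a difference below 0, with a median of -0.74, and 4 of them did not overlap. Hist1h1e, which encodes H1.4, is at chr13:23620629-23622558 on the minus strand as a gene of 1 exon. It was at 2.84, 3.39, 2.83 and 0.908 RPKM in CpG-STAT3dODN libraries, against 5.94, 6.32, 6.13 and 11.4 RPKM in CpG-scrODN libraries. Every CpG-STAT3dODN value lay below every CpG-scrODN value, and replicates 4 were the lowest and the highest. On the log2 scale the difference was -1.30 ± 0.36 (SE), with its 95% interval from -2.08 to -0.51 (limma adjusted p = 0.96). Hist1h1d, the gene of H1.3 at chr13:23553262-23560686, was at 2.75, 3.47, 2.65 and 1.49 RPKM in CpG-STAT3dODN libraries, against 6.24, 6.40, 6.18 and 16.4 RPKM in CpG-scrODN libraries. Its groups did not overlap either, and the difference was -1.36 ± 0.39 (SE, limma adjusted p = 0.96). Hist1h1c, the gene of H1.2 and the highest H1 gene at chr13:23738808-23740367, was at 22.1, 26.7, 19.5 and 49.8 RPKM in CpG-STAT3dODN libraries, against 33.3, 29.3, 34.1 and 97.8 RPKM in CpG-scrODN libraries. Its groups overlapped through CpG-STAT3dODN replicate 4. The difference was -0.61 with its 95% interval from -1.48 to 0.26.

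In H2A all 13 genes had a difference below 0 (median -0.57), 9 had an unadjusted p under 0.05 and 6 did not overlap. Hist1h2an, at chr13:21786826-21787218 on the minus strand, had the lowest difference of all 46. It was at 1.57, 1.21, 1.76 and 1.97 RPKM in CpG-STAT3dODN libraries, against 8.04, 7.87, 5.29 and 6.82 RPKM in CpG-scrODN libraries. The highest of the first group lay well under the lowest of the second, and no single library set the gap. The difference was -1.60 ± 0.40 (SE), with its 95% interval from -2.49 to -0.72 (limma adjusted p = 0.96). With only the 2 groups in the fit, limma called Hist1h2an (adjusted p = 0.0184), the only gene of 10886 then called. Hist1h2ac, at chr13:23681467-23683948, shares 11.6% of the windows of its annotated transcript, most of which lies past the stem-loop. It was at 6.10, 6.64, 5.98 and 1.67 RPKM in CpG-STAT3dODN libraries, against 10.2, 8.5, 9.22 and 18.5 RPKM in CpG-scrODN libraries. The difference was -1.10 ± 0.44 (SE). Hist1h2ai was at 6.02, 5.79, 6.43 and 6.29 RPKM in CpG-STAT3dODN libraries, against 7.95, 9.69, 9.31 and 11.7 RPKM in CpG-scrODN libraries. Values of the CpG-STAT3dODN libraries lay close together and those of the CpG-scrODN libraries were spread more widely. The difference was -0.57 ± 0.15 (SE). Hist1h2ah was at 1.33, 1.54, 0.860 and 0.000225 RPKM in CpG-STAT3dODN libraries, against 2.29, 3.00, 2.66 and 3.10 RPKM in CpG-scrODN libraries. The value of its CpG-STAT3dODN replicate 4 is below 1 read, and the difference of -1.04 ± 0.26 (SE) rests in part on it. Hist1h2ao and Hist1h2ae, named after their values were seen, complete the 6 with differences of -1.07 and -0.56. Hist1h2ag, the H2A gene with the second highest mean, overlapped between the groups, at 4.29 to 9.19 against 8.25 to 10.4 RPKM.

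**Figure D3:**
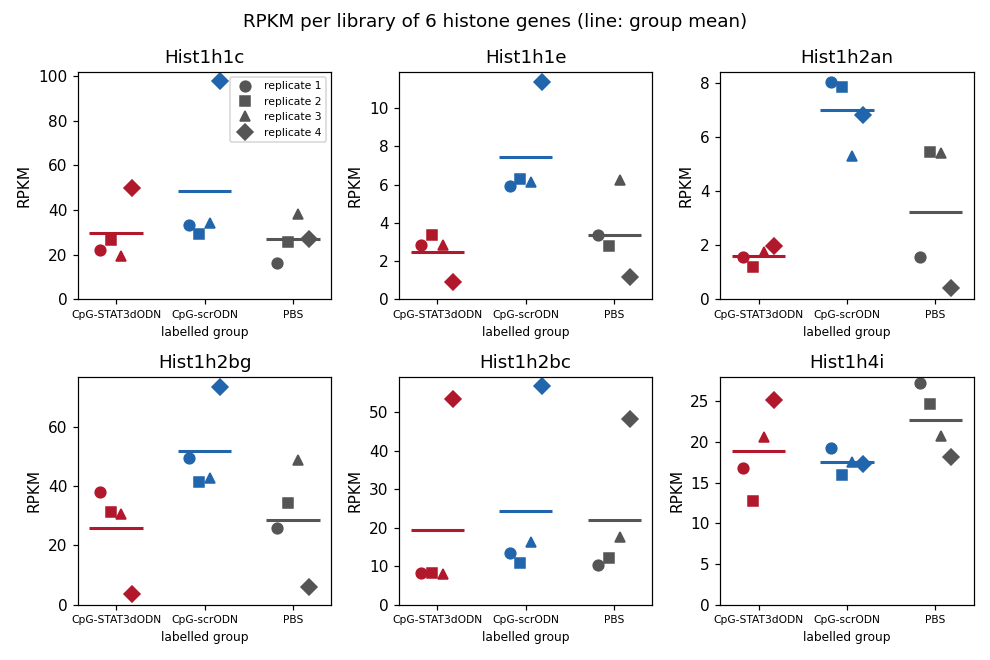
RPKM of 6 histone genes in each library, with symbols for replicates 1 to 4 and a line at each group mean. Hist1h2an, Hist1h1e and Hist1h2bg separate CpG-STAT3dODN from CpG-scrODN, and the 3 groups overlap in Hist1h4i. In Hist1h1e, Hist1h2bg and Hist1h2bc, libraries numbered 4 lie far from other libraries of their group.

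In H2B 9 of 10 genes had a difference below 0 (median -0.43), 3 had an unadjusted p under 0.05 and 4 did not overlap. Hist1h2bg, the highest histone gene, is at chr13:23571396-23572013 on the plus strand. It was at 37.9, 31.3, 30.7 and 3.76 RPKM in CpG-STAT3dODN libraries, against 49.6, 41.4, 42.7 and 73.2 RPKM in CpG-scrODN libraries. The groups did not overlap, but the libraries numbered 4 made the spread wide, and the difference of -1.30 had a 95% interval from -2.82 to 0.22. The other 3 that did not overlap were Hist1h2bb, Hist1h2bk and Hist2h2bb, named after their values were seen, with differences of -1.14, -0.45 and -0.41. Hist1h2bc was at 8.29, 8.13, 8.10 and 53.5 RPKM in CpG-STAT3dODN libraries, against 13.5, 10.9, 16.3 and 56.7 RPKM in CpG-scrODN libraries. In both groups replicate 4 was several times the other 3, and the groups overlapped. Hist1h2bj was at 5.91 to 10.6 against 7.93 to 12.5 RPKM, a difference of -0.28 with its 95% interval from -0.66 to 0.11.

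In H3 8 of 9 genes had a difference below 0 (median -0.24). The groups did not overlap in 2, Hist1h3i and Hist1h3e, the latter named after its values were seen. Hist1h3i was at 2.18, 1.2, 0.850 and 0.680 RPKM in CpG-STAT3dODN libraries, against 2.34, 2.41, 3.21 and 4.27 RPKM in CpG-scrODN libraries. The nearest values of the groups, 2.18 and 2.34, lay close together, and the difference was -0.89 ± 0.26 (SE, limma adjusted p = 0.96). Hist1h3c, the highest H3 gene, was at 4.78, 3.21, 4.22 and 3.83 RPKM in CpG-STAT3dODN libraries, against 4.89, 3.32, 4.19 and 3.88 RPKM in CpG-scrODN libraries. Its difference was -0.02 with its 95% interval from -0.36 to 0.32. In H4 6 of 9 genes had a difference below 0 (median -0.17), and none was free of overlap. Hist1h4i, at chr13:22040636-22041362 on the minus strand, was at 16.8, 12.8, 20.6 and 25.2 RPKM in CpG-STAT3dODN libraries, against 19.2, 15.9, 17.5 and 17.3 RPKM in CpG-scrODN libraries. The groups overlapped, and the difference was 0.06 with its 95% interval from -0.33 to 0.46. Hist1h4m had the lowest H4 difference, at -1.0 ± 0.38 (SE), from 1.5, 1.37, 0.767 and 0.0123 RPKM in CpG-STAT3dODN libraries, against 3.08, 2.83, 3.37 and 1.47 RPKM in CpG-scrODN libraries, and the last of its CpG-STAT3dODN values is below 1 read. The highest difference of all 46 was that of Hist1h4n, at 0.26 with its 95% interval from -0.40 to 0.92.

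**Figure D4:**
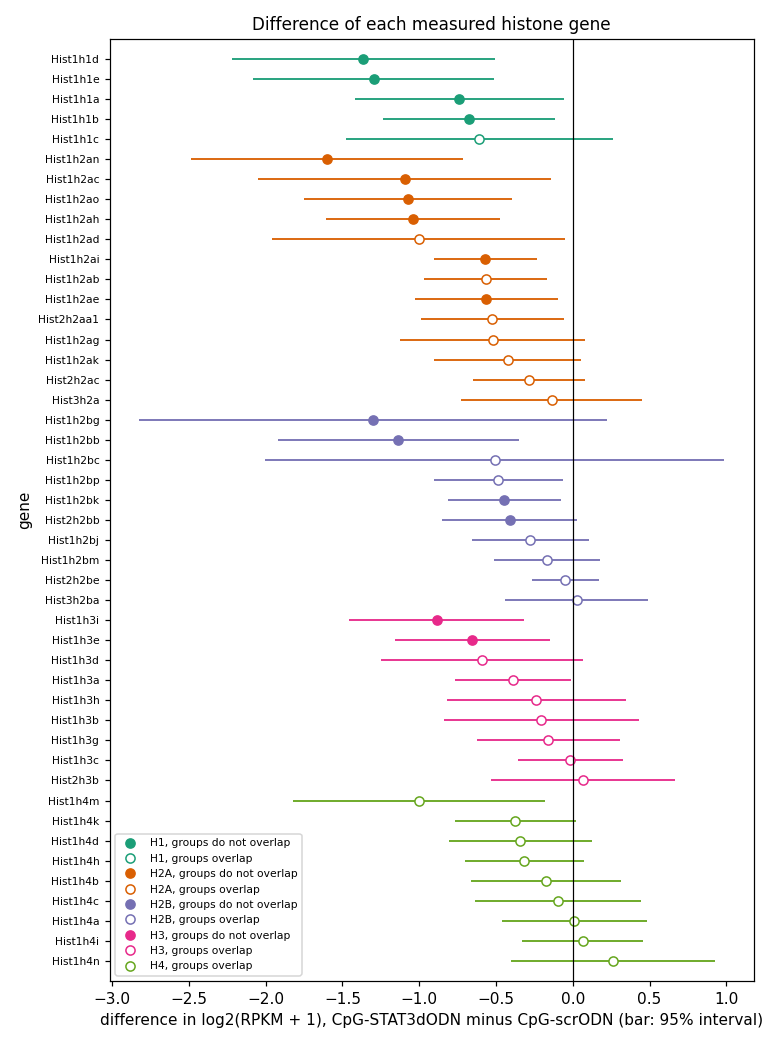
Difference in log2(RPKM + 1) between CpG-STAT3dODN and CpG-scrODN libraries for each of the 46 measured histone genes, with its 95% interval from limma, unadjusted; filled points mark the 16 genes whose groups do not overlap. Points lie left of 0 in 41 genes, most clearly in H1 and H2A, and no gene passed at an adjusted p under 0.05.

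The same counts were made with libraries left out, alternatives chosen after the data were seen. Without CpG-STAT3dODN replicate 4 and PBS replicate 4, 20 histone genes had an unadjusted p under 0.05, all below 0, and 21 did not overlap, against 0.873% and 1.39% of all genes in that direction. Without the 3 libraries numbered 4 there were 20 and 24, against 0.707% and 2.55%. Without CpG-scrODN replicate 4 there were 14 and 20, against 0.386% and 1.67%. With fewer libraries a group, groups fall free of overlap more often, as the shares over all genes show. Of the 16 genes that did not overlap over all libraries, 9 carry the stem-loop and 9 have no more than 50% of windows shared with another copy, while the other 7 share more. In the same comparison 14 of 14 measured immediate-early genes had a difference below 0 (median -1.30). In 9 of these 14 the groups did not overlap, all below, against 16 of 46 histone genes and 0.873% of all genes. The difference was above 0 in 8 of 8 neutrophil markers (median 1.02). The 11 measured B-cell markers were all above 0 (median 0.70), as were 8 of 9 markers of the leukaemia (median 0.27), and no gene of these lists was called. The neutrophil list summed to 1862 to 4175 RPKM in CpG-STAT3dODN libraries, and 527 to 2213 in CpG-scrODN libraries. Their part in the histone values was not tested.

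CpG-STAT3dODN was next set against PBS. In 42 of 46 histone genes the difference was below 0, against 53.7% of all genes, with medians of -0.27 and -0.01. Limma called 0 of the 46, against 202 of 10886 genes (1.86%). At an unadjusted p under 0.05 there were 8 histone genes (17.4%), all below 0, against 6.7% of all genes in that direction. The groups did not overlap in 2, Hist1h2ai and Hist1h3c, both below (4.35%), against 4.23% of all genes in that direction. The median was alike in every type, between -0.25 in H1 and H2B and -0.29 in H2A.

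Hist1h2ai was at 6.02, 5.79, 6.43 and 6.29 RPKM in CpG-STAT3dODN libraries, against 9.60, 11.2, 11.3 and 6.46 RPKM in PBS libraries. PBS replicate 4 lay next to the CpG-STAT3dODN values and the other 3 well above them. The difference was -0.55 ± 0.15 (SE, limma adjusted p = 0.130), and without that library limma called the gene (adjusted p = 0.00611). Hist1h3c was at 4.78, 3.21, 4.22 and 3.83 RPKM in CpG-STAT3dODN libraries, against 4.93, 8.05, 5.17 and 4.90 RPKM in PBS libraries, a difference of -0.42 ± 0.16 (SE, limma adjusted p = 0.334). Hist1h4m had the lowest difference, at -1.24 ± 0.38 (SE, limma adjusted p = 0.177), with 0.0123 to 1.5 RPKM against 1.47 to 7.05 RPKM. Its lowest value, in CpG-STAT3dODN replicate 4, is below 1 read. Hist1h4i was at 16.8, 12.8, 20.6 and 25.2 RPKM in CpG-STAT3dODN libraries, against 27.3, 24.7, 20.8 and 18.2 RPKM in PBS libraries. These overlapped, and the difference was -0.28 with its 95% interval from -0.68 to 0.11. The largest positive difference was that of Hist1h4n, at 0.51 with its 95% interval from -0.16 to 1.17.

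This comparison depended on the libraries numbered 4. Without CpG-STAT3dODN replicate 4 and PBS replicate 4, 14 histone genes had an unadjusted p under 0.05 and 17 did not overlap, all below 0, against 7.45% and 8.38% of all genes in that direction. Without the 3 libraries numbered 4 the counts were 20 and 17, against 7.91% and 8.38%. In both cases limma called 1 histone gene, Hist1h2ai, against 3.10% and 3.60% of all genes. Of the 11 measured B-cell markers, 10 were called lower in CpG-STAT3dODN libraries than in PBS libraries, with a list median of -2.41. Also called lower were 3 of 4 T-cell, 2 of 5 plasma-cell and 1 of 7 monocyte markers and 1 of 14 immediate-early genes, but none of 9 leukaemia markers (median -0.65). Their part was not tested.

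CpG-scrODN against PBS uses the same PBS libraries, so the differences from PBS are not independent. The difference was above 0 in 32 of 46 histone genes, against 40.1% of all genes, with medians of 0.18 over the histone genes and -0.05 over all. Limma called 0 of the 46, against 452 of 10886 genes (4.15%). At an unadjusted p under 0.05 there were 5 histone genes above 0, against 4.75% of all genes in that direction, and 1 below, against 10.9%. The groups did not overlap in 2, Hist1h2ah above and Hist1h3c below, against 3.83% and 10% of all genes. The types differed in their medians, with 0.70 in H1, 0.30 in H2A, 0.05 in H2B, 0.17 in H3 and -0.07 in H4. The difference between types was not tested.

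Hist1h1e was at 5.94, 6.32, 6.13 and 11.4 RPKM in CpG-scrODN libraries, against 3.35, 2.80, 6.22 and 1.15 RPKM in PBS libraries. PBS replicate 3 lay among the CpG-scrODN values. The difference was 1.03 ± 0.36 (SE, limma adjusted p = 0.171), and without that library limma called the gene (adjusted p = 0.0489). Hist1h2ah was at 2.29, 3.00, 2.66 and 3.10 RPKM in CpG-scrODN libraries, against 1.65, 1.33, 1.5 and 0.673 RPKM in PBS libraries. Its groups did not overlap, and the difference was 0.73 ± 0.26 (SE, limma adjusted p = 0.176). It was called without CpG-STAT3dODN replicate 4, which enters only through the shared spread (adjusted p = 0.0220), and with only the 2 groups in the fit (adjusted p = 0.0400). Hist1h2an had the highest difference, 1.18 ± 0.40 (SE, limma adjusted p = 0.165), with 5.29 to 8.04 RPKM against 0.420 to 5.46 RPKM. Hist1h3c went the other way, at 4.89, 3.32, 4.19 and 3.88 RPKM in CpG-scrODN libraries, against 4.93, 8.05, 5.17 and 4.90 RPKM in PBS libraries. That difference was -0.40 ± 0.16 (SE, limma adjusted p = 0.231).

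The positive median shrank without the libraries that stood apart. It was 0.04 without CpG-STAT3dODN replicate 4 and PBS replicate 4, with 27 of 46 histone genes above 0. At an unadjusted limma p under 0.05 there were then 3 histone genes above 0 and 2 below, against 6.88% and 11.6% of all genes. Without all 3 libraries numbered 4 the median was -0.01, with 22 of 46 genes above 0. In this comparison all 11 measured B-cell markers were called lower in CpG-scrODN libraries than in PBS libraries, with a list median of -3.32. Of the other lists, 4 of 9 leukaemia markers (median -0.72), 3 of 4 T-cell, 3 of 5 plasma-cell, 2 of 6 mast-cell and basophil and 2 of 7 monocyte markers were called lower. The leukaemia list summed to 305 to 463 RPKM in CpG-STAT3dODN libraries, 225 to 283 in CpG-scrODN libraries, and 421 to 554 in PBS libraries. The part of these cells was not tested.

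The spread between libraries of a group was itself uneven over the histone genes. CpG-scrODN replicate 4 held the highest of the 12 values in 25 of 46 histone genes (54.3%), against 6.15% of all genes. CpG-STAT3dODN replicate 4 and PBS replicate 4 both lay below each of the other 10 libraries in 16 (34.8%), against 18.8%. In 12 genes (26.1%, against 2.57% of all genes) the libraries numbered 4 held both ends, with CpG-scrODN replicate 4 above all others and the other two below. Those 12 include Hist1h1d, Hist1h1e, Hist1h2ac and Hist1h2bg. Another 3 went with the number itself, with all 3 libraries numbered 4 above the other 9. They were Hist1h2bc, Hist3h2a and Hist3h2ba, and this share (6.52%) was near that of all genes (4.42%). In 1 gene, Hist1h3g, all 3 lay below the other 9 (2.17%, against 5.77% of all genes). Hist1h2bc held 53.5, 56.7 and 48.1 RPKM in CpG-STAT3dODN replicate 4, CpG-scrODN replicate 4 and PBS replicate 4, against 8.10 to 17.6 RPKM in the other 9.

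Many H2A and H2B genes stand head to head, with their starts close together, and both genes of such a pair can be read beside each other. Hist1h2ae and Hist1h2bg start 176 bases apart, within the promoter window printed above for Hist1h2bg. In CpG-STAT3dODN replicate 4 and PBS replicate 4, Hist1h2bg was at 3.76 and 5.82 RPKM and Hist1h2ae at 3.47 and 2.97 RPKM. In the other libraries Hist1h2bg was at 25.7 to 73.2 and Hist1h2ae at 2.88 to 6.97 RPKM, with the lowest Hist1h2ae value of the 12 in CpG-STAT3dODN replicate 2. Hist1h2ac and Hist1h2bc start 251 bases apart. In the same 2 libraries Hist1h2ac was at 1.67 and 1.82 RPKM, the lowest of the 12, while Hist1h2bc was at 53.5 and 48.1 RPKM, among the 3 highest. The genes of this pair thus took opposite places in these libraries. In CpG-scrODN replicate 4 both were the highest of the 12, at 18.5 and 56.7 RPKM. The pairs shown are the extremes among head-to-head pairs with both genes measured. Over the 12 libraries their log2 values correlated at 0.74 and -0.25 (Pearson), in the order given. The other such pairs lay at 0.24 to 0.53, so opposite places were not the general case.

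**Figure D5:**
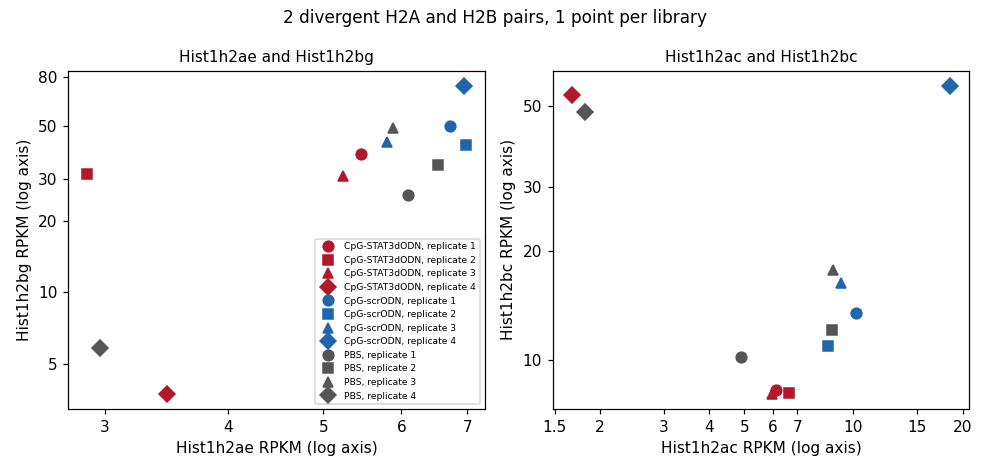
Each point is a library, with the RPKM of the H2A gene on the x axis and of its head-to-head H2B neighbor on the y axis, both log axes. On the right, CpG-STAT3dODN replicate 4 and PBS replicate 4 lie at the upper left, with Hist1h2ac at 1.67 and 1.82 RPKM and Hist1h2bc at 53.5 and 48.1 RPKM.

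Genes that act with the histones were set beside them, from lists chosen with earlier results of these data known. Of 17 measured genes of histone mRNA processing and decay 0 were called in any comparison, and their median difference was 0.02 for CpG-STAT3dODN minus CpG-scrODN. Slbp, which encodes the stem-loop binding protein, was at 45.8 to 59.9 RPKM in CpG-STAT3dODN libraries, 44.5 to 56.3 in CpG-scrODN libraries, and 52.6 to 63.3 in PBS libraries. The groups overlapped in each pair. Of 17 histone chaperones, which hand histones on to DNA, 0 were called, with a median of -0.02 in that comparison. Of 10 measured replacement histones 0 were called in any comparison, with a median of 0.01 for CpG-STAT3dODN minus CpG-scrODN. Such histones are made also outside S phase, mainly from polyadenylated mRNA. H2afz, the gene of H2A.Z, was at 513 to 919, 614 to 683 and 646 to 778 RPKM in CpG-STAT3dODN, CpG-scrODN and PBS libraries, in that order. It too overlapped between all groups.

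Of 30 S phase genes 0 were called in any comparison. Their median difference was -0.05 for CpG-STAT3dODN minus CpG-scrODN, -0.12 for CpG-STAT3dODN minus PBS and -0.09 for CpG-scrODN minus PBS. In that order, 22, 28 and 25 of the 30 had a difference below 0, against 40%, 53.7% and 59.9% of all genes. The mean of their log2 values per library was 4.84 to 5.32 in CpG-STAT3dODN libraries, 4.87 to 5.26 in CpG-scrODN libraries, and 5.06 to 5.42 in PBS libraries. CpG-scrODN replicate 4, the library with the highest summed histone RPKM, held the lowest of the 4 means in its group, at 4.87. Of 18 G2 and M phase genes 0 were called, and their medians were 0.04, -0.29 and -0.30 in the same order of comparisons. The difference was below 0 in 7, 18 and 18 of these 18 genes in that order. Between CpG-scrODN and PBS libraries 2 of the 30 S phase genes did not overlap, both lower, against 10% of all genes. They were Ccne1 and Ccne2, cyclins of the start of S phase, with differences of -0.88 ± 0.29 and -0.63 ± 0.20 (SE, limma adjusted p = 0.138 and 0.118). RNAs without a poly(A) tail could serve as a check on RNA selection, but only 3 of 11 listed in the files passed the filter. Rmrp, the RNA of RNase MRP, gave a difference of 0.25 with its 95% interval from -0.26 to 0.75 for CpG-STAT3dODN minus CpG-scrODN. The 11 summed to 6.55, 9.65 and 10.4 RPKM in replicate 4 of CpG-STAT3dODN, PBS and CpG-scrODN, against 11.2 to 17.5 RPKM in all other libraries. The mean log2 of the 3 that passed was 1.31, 1.89 and 1.56 in that order, against 1.49 to 2.16. Whether RNA selection differed was not tested.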

How the data were processed

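Gene expression was measured by RNA-seq in 12 libraries, 4 per labelled group. The authors deposited RPKM values per gene symbol, per the labels and file headers, and these were used as deposited. The submitters' processing notes name mm10, TopHat 1.3.1 and Partek 6.12.0713 without their roles. For poly(A) selection, strand and reads that fit several genes, the steps are not stated. Depth, estimated from the RPKM that 1 read is worth in 842 to 960 genes with a single transcript, was 31510000 to 36250000 reads. Only 59.62% to 62.88% of their values came out whole within 0.05 of a read, so no count test was run. In 27 rows the symbol had become a date, and none is a histone gene.

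Values were analysed as log2(RPKM + 1), which understates the change of low genes. A limma 3.58.1 model with an intensity trend (R 4.3.3) held the 3 groups over 10886 genes, and was tested on simulated data. Calls were two-sided, at a p under 0.05 after Benjamini-Hochberg adjustment over the genes of a comparison, and 95% intervals are not adjusted. No label ties a library to 1 mouse, so the spread behind the p-values is that between these samples and may be technical. No pair of libraries was identical. Members, lists and alternatives were chosen with earlier results of these data known. Histone genes named by rule were the 3 highest of each type and the 3 largest differences each way per comparison. The 5 with the largest ratio of highest to lowest library were also named. Other histone genes stood outside this rule, and some are marked as named after their values were seen. Of each other list up to 4 genes could be named by rule, called genes and those with the largest differences. Slbp, H2afz and Kit were named outside these rules. Positions and transcripts came from GENCODE (GRCm38) and promoters from RefSeq (GRCm38.p6). Alternatives covered the pseudocount, filter, scaling, replicate block, library weights and leaving libraries out.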

Additional observations from a re-analysis of the deposited data

Results flagged for a closer look

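Among 87 groups of 4 libraries tested for a single value far from the other 3, over the named histone genes and the summed values, 14 stood out. Chance gives about 1 in 20 in groups that were not selected. Some of these genes were named for their wide range or large differences, and the sums hold the same genes, so the 14 cannot be set against that share.

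Replicate 4 labelled CpG-STAT3dODN was the distant value in 5 genes. It was low in Hist1h1e, at 0.908 RPKM with the other 3 at 2.83 to 3.39. It was low in Hist1h2ac, at 1.67 against 5.98 to 6.64, and in Hist1h2bg, at 3.76 against 30.7 to 37.9. It was high in Hist1h2bc, at 53.5 RPKM with the other 3 at 8.10 to 8.29, and in Hist1h3a, at 3.5 against 2.69 to 2.80.

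Replicate 4 labelled CpG-scrODN was the distant value in 3 genes, all of H1, and in 3 sums. It was at 97.8 RPKM in Hist1h1c with the other 3 at 29.3 to 34.1, at 16.4 in Hist1h1d against 6.18 to 6.40, and at 11.4 in Hist1h1e against 5.94 to 6.32. Its summed RPKM over the measured histone genes was 459, against 246 to 269 in the other 3. Its H1 sum was 134 against 45.3 to 49.8, and its H2A sum was 100.3 against 68.6 to 71.5. Replicate 3 of the same label was low in Hist1h4a, at 0.702 RPKM against 1.15 to 1.16.

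In the libraries labelled PBS, replicate 2 was high in Hist1h3c, at 8.05 RPKM against 4.90 to 5.17. Replicate 4 was low in the H4 sum, at 28.6 against 40.8 to 42.7.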

How the results depend on the processing

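The count of called histone genes, 0 in each comparison, moved most with limma's library quality weights, which gave 2 for CpG-STAT3dODN minus PBS (Hist1h2ai, Hist1h4i), 5 for CpG-scrODN minus PBS and 15, all lower, for CpG-STAT3dODN minus CpG-scrODN. These weights ran from 0.112 to 10.6 and did not reach their convergence tolerance. Over all genes they gave 1248, 1812 and 607 calls in that order. With only the 2 groups of a comparison, 1 histone gene was called for CpG-scrODN minus PBS and 1 for CpG-STAT3dODN minus CpG-scrODN, of 404 and 1 genes in all, and 0 for CpG-STAT3dODN minus PBS, of 78 genes. With both libraries of low Fos left out, 1 histone gene was called in each comparison with PBS, of 337 and 686 genes for CpG-STAT3dODN and CpG-scrODN. Without the 3 libraries numbered 4 there was again 1 in each, of 392 and 665 genes in the same order, and the histone median for CpG-scrODN minus PBS, 0.18 over all libraries, turned to -0.01. A floor of 5 RPKM left 14 histone genes and gave 76 and 163 calls for CpG-STAT3dODN and CpG-scrODN minus PBS, and a histone median of 0.53 for CpG-scrODN minus PBS. Fewer genes and low histone genes left out are part of its construction; the cause of the other shifts was not tested.

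Leaving out 1 library at a time gave 0 to 1 called histone genes for CpG-STAT3dODN minus PBS and for CpG-scrODN minus PBS, and 0 for CpG-STAT3dODN minus CpG-scrODN. Over all genes these runs gave 121 to 218, 279 to 560 and 0 calls. The histone medians ran from -0.42 to -0.15, 0.04 to 0.26 and -0.50 to -0.37. Without a filter and with the library weights they were -0.29 and -0.28 for CpG-STAT3dODN minus CpG-scrODN (-0.47 as reported), and 0.09 and 0.06 for CpG-scrODN minus PBS. Quantile normalization and median-ratio size factors kept 0 calls, with medians of -0.20 and -0.26 for CpG-STAT3dODN minus PBS, 0.30 and 0.21 for CpG-scrODN minus PBS, and -0.50 and -0.49 for CpG-STAT3dODN minus CpG-scrODN.

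Replicate numbers did not pair the samples. Deviations of same-numbered libraries correlated at -0.341 to 0.817, and only those numbered 4 matched their own number best. With the replicate block, 0 histone genes were called in each comparison, and 213, 523 and 0 genes in all. Genes under about 1 RPKM rest on few reads, and shared sequence between copies limits any value of a single gene.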
